A study of Mus musculus with 2 samples.

Results

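Von Willebrand factor and the genes of the platelet adhesion receptors were followed in single cells of mouse bone marrow, sorted by gates for haematopoietic stem cells. The set holds 8 genes chosen by symbol, Vwf, Gp1ba, Gp1bb, Gp5, Gp6, Gp9, Itga2b and Itgb3, out of 32285 genes in the deposited tables. All 8 were found, and each had at least 1 UMI (unique molecular identifier, which marks 1 captured RNA molecule) in each library. Cells were compared by Hlf, a transcription factor gene of stem cells, and by Pf4, the gene of platelet factor 4, to see whether stem cells that barely express Pf4 already carry platelet transcripts.

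Platelets are shed by megakaryocytes, which arise in the marrow from haematopoietic stem cells. Von Willebrand factor is a multimeric protein that bridges exposed collagen and platelets, and it is made by endothelial cells and megakaryocytes. Platelets catch it with the GPIb-IX-V complex, in which Gp1ba carries the binding site, Gp1bb and Gp9 are needed to bring the complex to the surface, and Gp5 is an associated subunit. Gp6 encodes glycoprotein VI, the signalling receptor for collagen. Itga2b and Itgb3 encode the integrin αIIbβ3, which binds fibrinogen and von Willebrand factor and holds platelets together. In mice, Vwf expression is known to mark stem cells biased towards platelet output.

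The data are 2 droplet libraries, 1 labelled LT-HSC (long-term stem cells) and 1 labelled ST-HSC (short-term stem cells), from the marrow of WT C57Bl6 mice aged 8 weeks. Both gates took LSK cells (lineage negative, Sca-1 and Kit positive) without CD34 and with CD150. The LT-HSC gate also required that CD48 and Flk2 be absent, and the ST-HSC gate that CD48 be present. The labels do not say how many animals were pooled. With 1 library per group there was no replicate error and no p-value was computed, so each interval below is a 95% interval of counting error alone, and a difference between the groups cannot be told apart from one between the libraries.

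The LT-HSC library had 2722 of 2938 barcodes with at least 1000 genes and under 10% mitochondrial UMIs, with a median of 17595 UMIs per cell. The library labelled ST-HSC had 6648 of 7586, with a median of 13402 UMIs. The transcripts of the gate did not all follow the labels. Slamf1, which encodes CD150, had 26.5 CPM (UMIs per 1000000) in the LT-HSC library, against 1.26 CPM in the library labelled ST-HSC. Cd34 had 29.2 against 242 CPM and Flt3, which encodes Flk2, had 5.5 against 291 CPM in the same order. The LT-HSC library was thus on the side its gate names, and the library labelled ST-HSC was low for CD150 and high for CD34, against its gate. Only 8 barcode sequences occurred in both libraries, 6 of them among the kept cells. All 12 stem cell markers were detected in both libraries, but Hlf itself had 140.1 CPM in the LT-HSC library against 460.3 CPM in the library labelled ST-HSC.

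The 8 genes lie on 4 chromosomes of mm10. Vwf and Gp9 are on chromosome 6, at chr6:125546774-125686679 and chr6:87778072-87779768. Gp1ba, Itga2b and Itgb3 are on chromosome 11, at chr11:70639122-70642036, chr11:102453297-102470122 and chr11:104608000-104670476. Gp1bb and Gp5 are on chromosome 16, at chr16:18620317-18622403 and chr16:30307685-30310779, and Gp6 is at chr7:4363965-4397744. All are protein-coding. Gp1bb overlaps Sept5 and the gene model Gm49601 on the same strand, so reads of shared bases may not have been counted for Gp1bb. Sept5 had 18 UMIs in the LT-HSC library, against 25 in the library labelled ST-HSC. How many Gp1bb reads the overlap cost was not measured.

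Promoter sequences of 300 bases, 250 before and 50 after the start, were found for 6 of the 8 genes in RefSeq on GRCm38.p6. They are shown for 3 genes that were spread differently over the cells below, namely Gp5, which was shared with erythroid-like cells, Gp9, which was the most abundant receptor gene in the Hlf-high Pf4-low cells of the LT-HSC library, and Itga2b, which led in Pf4-high cells. Each is written 5′ to 3′ on the strand of its gene. Capitals mark AGATAA or TGATAA, forms read by GATA factors, and AGGAAG or CGGAAG, forms read by ETS factors, on either strand.
Gp5, chr16:30310732-30311031, minus strand: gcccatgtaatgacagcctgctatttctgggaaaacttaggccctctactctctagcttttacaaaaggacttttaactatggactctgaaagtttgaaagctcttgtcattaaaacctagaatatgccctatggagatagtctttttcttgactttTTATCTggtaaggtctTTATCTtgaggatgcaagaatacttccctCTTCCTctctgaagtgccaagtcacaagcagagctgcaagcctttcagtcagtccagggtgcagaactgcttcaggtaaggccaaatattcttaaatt
Gp9, chr6:87777820-87778119, plus strand: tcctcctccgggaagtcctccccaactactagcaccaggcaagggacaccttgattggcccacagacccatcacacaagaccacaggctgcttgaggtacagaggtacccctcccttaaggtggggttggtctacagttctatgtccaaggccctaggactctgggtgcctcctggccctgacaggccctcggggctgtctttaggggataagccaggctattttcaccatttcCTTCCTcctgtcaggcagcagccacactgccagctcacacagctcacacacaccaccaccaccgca
Itga2b, chr11:102469834-102470133, minus strand: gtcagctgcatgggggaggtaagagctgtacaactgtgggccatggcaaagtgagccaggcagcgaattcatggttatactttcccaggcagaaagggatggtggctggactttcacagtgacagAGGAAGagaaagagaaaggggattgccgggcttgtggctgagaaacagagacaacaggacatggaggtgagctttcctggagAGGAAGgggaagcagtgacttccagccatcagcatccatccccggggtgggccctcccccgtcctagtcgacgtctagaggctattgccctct
Positions are counted from the start, negative before it. The Gp5 window held AGATAA at -93 and -77, as TTATCT on the strand shown, and AGGAAG at -48, as CTTCCT. Of the words searched, the windows of Gp9 and Itga2b held only an ETS word, AGGAAG at -16 in Gp9, as CTTCCT, and at -125 and -43 in Itga2b. Other GATA forms, such as the GGATAA in the Gp9 window, were not searched. Of the 32851 promoters in the table, 18.6% held 1 of the GATA words, 46.5% an ETS word and 7.7% both. Among the 6 windows, Gp5, Gp6 and Gp1ba held a GATA word, all but Gp6 held an ETS word, and Gp5 and Gp1ba held both. A match is only a run of letters, and nothing was measured on binding.

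Every one of the 8 genes was higher in the LT-HSC library than in the library labelled ST-HSC. Levels are given as CPM of the summed UMIs, and since the assay counts 1 end per molecule they need no correction for gene length. Vwf had 1908 UMIs, or 29.5 CPM, in the LT-HSC library, against 416 UMIs, or 3.72 CPM, in the library labelled ST-HSC, a ratio of 7.93 (7.13 to 8.84). The counting intervals of the levels do not meet, at 28.2 to 30.9 CPM in the LT-HSC library against 3.37 to 4.1 CPM in the library labelled ST-HSC.

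Of the GPIb-IX-V genes, Gp9 had 39.8 CPM in the LT-HSC library, against 6.89 CPM in the library labelled ST-HSC, 5.78 times as much (5.33 to 6.27). Gp5 had 26.3 against 2.8 CPM, a ratio of 9.38 (8.31 to 10.6). Gp1ba, the subunit that binds von Willebrand factor, had few UMIs in both libraries, with 2.94 against 0.501 CPM and a ratio of 5.86 (4.33 to 8.05). Gp1bb was found almost wholly in the LT-HSC library, with 374 UMIs there and 5 in the library labelled ST-HSC, a ratio of 129 (54.9 to 400.5). The collagen receptor gene Gp6 had 12 UMIs against 1, and its ratio of 20.7 has an interval of 3.07 to 887.

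The integrin genes differed least. Itga2b had 37.8 CPM in the LT-HSC library against 10.4 CPM in the library labelled ST-HSC, a ratio of 3.63 (3.38 to 3.9). Itgb3 had 12.2 against 4.47 CPM, a ratio of 2.73 (2.44 to 3.06). In the LT-HSC library the levels ran from Gp9 and Itga2b, whose intervals of 38.3 to 41.4 and 36.3 to 39.3 CPM overlap, down through Vwf, Gp5, Itgb3, Gp1bb and Gp1ba to Gp6. In the library labelled ST-HSC Itga2b stood first and Gp9 second.

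**Figure D1:**
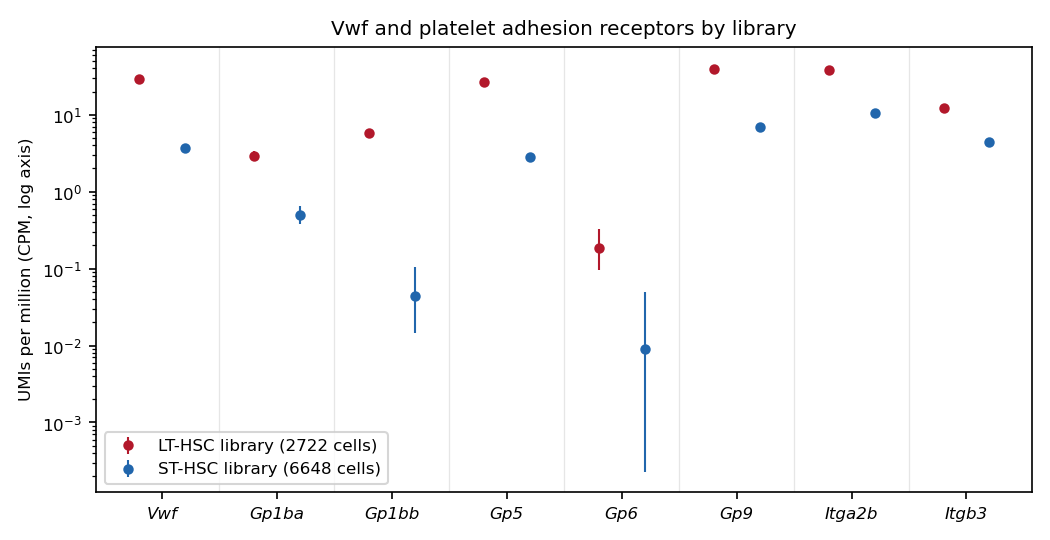
CPM (log axis) of the 8 genes in the LT-HSC library and the library labelled ST-HSC, with exact Poisson 95% intervals as bars. Each gene is higher in the LT-HSC library, by 2.73 times for Itgb3 and 129 times for Gp1bb.

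A gene was counted as past 2-fold by size, at a ratio of at least 2 or at most 0.5, where its mean over both libraries reached 5 CPM. Vwf, Gp5, Gp9, Itga2b and Itgb3 reached that mean, and 5 of these 5 had a ratio of at least 2. Among all genes that reached it, 2.88% did, 300 of 10412, and 1126 genes had a ratio of at most 0.5. Gp1ba, Gp1bb and Gp6 were too low for the count. Vwf, Gp5 and Itgb3 entered it only through the LT-HSC library, being under 5 CPM in the library labelled ST-HSC. The median log2 ratio of the 5 genes was 2.53, and that of all genes was -0.12. Scaling moved the balance of all genes, with 417 higher and 917 lower under TMM library sizes (all-gene median 0.01) and 434 higher and 894 lower under the median of ratios (0.02), and the 5 genes had a ratio of at least 2 under both.

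Cell make-up differed between the libraries beside these ratios. Cells with at least 10 Pf4 UMIs per 10000, here called Pf4-high, numbered 254 of 2722 in the LT-HSC library, against 11 of 6648 in the library labelled ST-HSC, and Pf4 had 694 against 16.2 CPM. Cells with at least 50 UMIs per 10000 of the erythroid carbonic anhydrase gene Car1 and under 1 of Pf4 are called Car1-high. They numbered 451 of 2722 in the LT-HSC library, against 42 of 6648 in the library labelled ST-HSC. In the LT-HSC library they held 432 of the 1699 Gp5 UMIs. The libraries were therefore compared again within cells that had at least 2 Hlf UMIs and under 1 Pf4 UMI per 10000, called Hlf-high Pf4-low. There were 793 such cells in the LT-HSC library, against 4023 in the library labelled ST-HSC, at medians of 12613 and 12905 UMIs. Such classes are ranges and not cell types. In the LT-HSC library 466 cells lay near the Hlf limit, with 1 to 4 per 10000, and 126 lay near the Pf4 limit, with 5 to 20; in the library labelled ST-HSC these were 1629 and 48.

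Within the Hlf-high Pf4-low cells the Vwf difference was as large as in all cells. Vwf had 339 UMIs, or 27.6 CPM, in the LT-HSC library, against 213 UMIs, or 3.31 CPM, in the library labelled ST-HSC, a ratio of 8.34 (7.01 to 9.95). Gp9 had 36.1 against 7.83 CPM, a ratio of 4.61 (4.05 to 5.25), and Itgb3 had 12.7 against 4.79 CPM, a ratio of 2.66 (2.18 to 3.23). Itga2b, in contrast, had 14.1 against 10.3 CPM, a ratio of 1.37 (1.15 to 1.62), well under its 3.63 in all cells. Of the 4 genes that reached the mean of 5 CPM here, 3 had a ratio of at least 2 and 0 of at most 0.5, against 4.97% and 6.47% of all genes tested. Vwf and Itgb3 reached it only through the LT-HSC library. Gp5 had 5.38 against 1.35 CPM and Gp1ba 1.3 against 0.311 CPM, both under that mean. Gp1bb had 6 UMIs against 2 and Gp6 had 1 against 0.

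When Hlf-high was set at 4 UMIs per 10000, the log2 ratio of Itga2b was 0.11 in place of 0.45 and that of Gp5 was 1.33 in place of 1.99. Of 12 megakaryocyte progenitor markers outside the 8 genes, 11 had a UMI in the LT-HSC cells of this class (Tubb1 was at 0) and 12 in those of the library labelled ST-HSC, and without Pf4 they summed to 417 against 272 CPM. Markers of the G2/M phase had 325 against 1180 CPM. Their part in the result was not tested.

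The question of platelet priming was taken up within the LT-HSC library, where Hlf-high Pf4-low cells were set against Pf4-high cells. Every gene of the set was lower in the Hlf-high Pf4-low cells, but by very unequal factors. Gp9, Itgb3 and Vwf were lower by 3.21, 3.61 and 4.48 times, while Itga2b, Gp5 and Gp1bb were lower by 11.7, 13.3 and 67.6 times. So the gene of the ligand and those of 2 subunits were nearer to the Pf4-high cells than Itga2b, Gp5 and Gp1bb were.

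Vwf had 27.6 CPM (24.8 to 30.7) in Hlf-high Pf4-low cells against 124 CPM (116 to 132) in Pf4-high cells. Gp9 had 36.1 against 116 CPM and Itgb3 had 12.7 against 45.9 CPM. Their intervals of the fold lower, 3.95 to 5.09 for Vwf, 2.86 to 3.61 for Gp9 and 2.98 to 4.39 for Itgb3, lie apart from those of Itga2b, Gp5 and Gp1bb. Itga2b had 14.1 against 164 CPM, 9.94 to 13.8 times lower, and Gp5 had 5.38 against 71.7 CPM, 10.3 to 17.5 times lower. Gp1bb had 6 UMIs in 793 cells against 247 UMIs in 254 cells, 30.6 to 186 times lower. Gp1ba had 1.3 against 8.16 CPM, 6.26 times lower, and Gp6 had 1 UMI against 11, 18.1 times lower. Their intervals of 3.56 to 11.6 and 2.63 to 778 overlap those of Vwf, Gp9 and Itgb3, so counting error does not place these 2 genes.

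All 6 genes that reached a mean of 5 CPM in this comparison had a ratio of at most 0.5, against 5.05% of all genes tested, and 14.2% of all genes had a ratio of at least 2. Gp1bb reached that mean only through the Pf4-high cells, with 33 CPM there against 0.489 CPM, so its place in this count was fixed in advance. The median log2 ratio was -2.85 for the 6 genes and 0.17 for all genes. Pf4, itself a megakaryocyte gene, chose these classes, so the direction is given as a description. With Hlf-high set at 1 or 4 per 10000 the log2 ratio of Gp5 was -3.23 or -4.38, in place of -3.74. The megakaryocyte progenitor markers without Pf4 had 417 CPM in Hlf-high Pf4-low cells and 1637 CPM in Pf4-high cells.

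**Figure D2:**
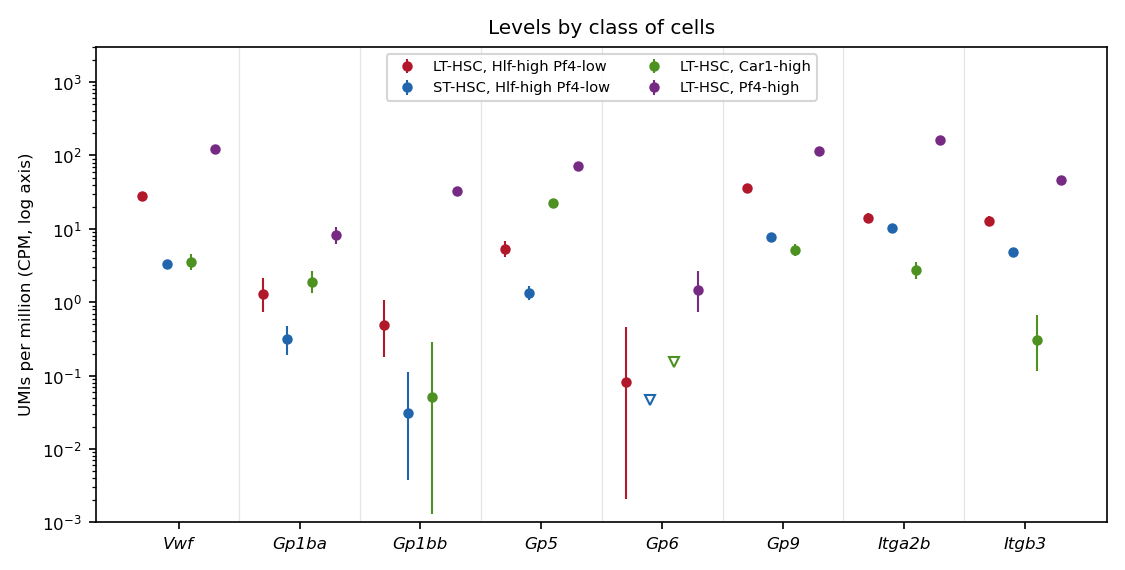
CPM (log axis) of the 8 genes in 4 classes of cells, left to right Hlf-high Pf4-low cells of the LT-HSC library and of the library labelled ST-HSC, Car1-high cells and Pf4-high cells of the LT-HSC library; bars are exact Poisson 95% intervals and open triangles mark 3 counts where none was found. Vwf and Gp9 in LT-HSC Hlf-high Pf4-low cells (27.6 and 36.1 CPM) lie between the Pf4-high cells (124 and 116 CPM) and the other classes.

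The mix of transcripts differed accordingly. In Hlf-high Pf4-low cells of the LT-HSC library, Gp9 made up 36.9% of the UMIs of the 8 genes and Vwf 28.2%, with Itga2b at 14.4% and Itgb3 at 13%. Pf4-high cells had Itga2b first at 29.1%, followed by Vwf at 21.9%, Gp9 at 20.5% and Gp5 at 12.7%. Hlf-high Pf4-low cells of the library labelled ST-HSC were led by Itga2b at 36.9%, with Vwf at 11.9%. The summed level of the 8 genes was 97.8 CPM in the first of these classes, 564 CPM in the second and 27.9 CPM in the third.

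Detection in single cells was compared after each cell was thinned at random to 5000 UMIs, since Pf4-high cells had a median of 24360 UMIs. In the LT-HSC library a Vwf UMI was then found in 102 of 776 Hlf-high Pf4-low cells, or 13.1% (10.8 to 15.7), and in 98 of 251 Pf4-high cells, or 39% (33 to 45.4). Without thinning the shares were 27.1% and 84.6%. Car1-high cells, with at least 50 Car1 UMIs and, like the Hlf-high Pf4-low cells, under 1 Pf4 UMI per 10000, served as a class that should lack Vwf. Of these, 5 of 449, or 1.11% (0.363 to 2.58), had a Vwf UMI. Their median depth before thinning was 39670 UMIs, against 12613 in the Hlf-high Pf4-low cells. Vwf detection in LT-HSC Hlf-high Pf4-low cells was thus above that of the erythroid class of the same library beyond counting error.

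Gp9 was found in 16.2% of thinned Hlf-high Pf4-low cells, against 47.4% of Pf4-high and 3.34% of Car1-high cells. Itga2b was found in 6.06%, against 51.4% and 1.56%, and Itgb3 in 4.12%, against 19.5% and 0.223%. Each was above the erythroid class. Gp5 was not, with 2.58% (1.58 to 3.95) against 33.1% of Pf4-high and 10% (7.4 to 13.2) of Car1-high cells. Gp1bb was found in 0.258% of Hlf-high Pf4-low, 11.6% of Pf4-high and 0.223% of Car1-high cells, which is 2, 29 and 1 cells, too few to set the first class apart from the last. Before thinning it had 0.489 CPM (6 UMIs) in Hlf-high Pf4-low cells against 0.0517 CPM (1 UMI) in Car1-high cells, a ratio of 9.46 (1.15 to 435).

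In the library labelled ST-HSC, 1.4% (1.05 to 1.82) of thinned Hlf-high Pf4-low cells had a Vwf UMI. Cells with at least 10 UMIs per 10000 of the myeloperoxidase gene Mpo had 1 in 226, or 0.442% (0.0112 to 2.44), and cells with at least 2 of the lymphoid gene Dntt had 0.773% (0.354 to 1.46). Both classes were also held to under 1 Pf4 UMI per 10000. Of the Dntt-positive cells 54.6% were also Hlf-high. The Vwf share of Hlf-high Pf4-low cells there lay within these counting intervals. Since the Dntt-positive cells were largely of the same class and 1 Mpo-high cell had Vwf, these shares could not decide on background at this depth. The levels before thinning did lie apart, with 3.31 CPM (2.88 to 3.79) in Hlf-high Pf4-low cells against 1.59 CPM (1.09 to 2.25) in Dntt-positive cells and 0.603 CPM (0.164 to 1.54) in Mpo-high cells.

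**Figure D3:**
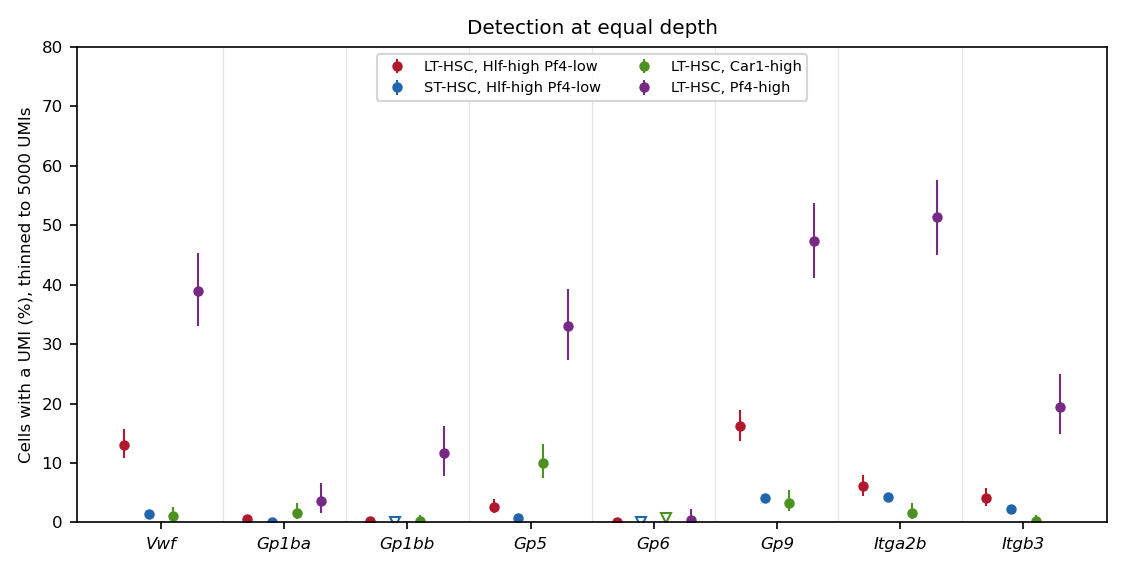
Share of cells with at least 1 UMI after thinning to 5000 UMIs (percent, linear axis), for the 8 genes in the same 4 classes; bars are exact binomial 95% intervals and open triangles mark the share that 3 cells would give. Vwf reaches 13.1% and Gp9 16.2% in LT-HSC Hlf-high Pf4-low cells, between the 39% and 47.4% of Pf4-high cells and the 1.11% and 3.34% of Car1-high cells.

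The levels in LT-HSC Hlf-high Pf4-low cells were much the same where no Pf4 transcript was found. In the 623 of these cells with 0 Pf4 UMIs, Vwf had 30 CPM (26.4 to 33.9) and was found in 13.9% of thinned cells, Gp9 had 34.4 CPM and Itgb3 had 11.3 CPM. Most positive cells held little: of the 215 unthinned cells with Vwf, 146 had a single UMI, 7 had 5 or more and the highest had 11. Among the Pf4-high cells, also 215 with Vwf, 53 had a single UMI, 57 had 5 or more and the highest had 29. The levels therefore came from many cells and not from a few.

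Few Hlf-high Pf4-low cells held several genes of the set at equal depth. Of thinned LT-HSC Hlf-high Pf4-low cells, 63.5% had none of the 8 genes, 30.4% had 1, 5.54% had 2 and 0.515% had 3 or more. Pf4-high cells had 10.4%, 23.9%, 30.7% and 35.1% in these groups, and Car1-high cells 83.3%, 15.4%, 1.34% and 0 of 449. Without thinning, Gp9 was found with neither Gp1ba nor Gp1bb in 279 of the 291 Hlf-high Pf4-low cells that had it. Gp1ba was found in only 16 and Gp1bb in 5 of the 793 cells, so whether the subunits met in 1 cell could not be measured at this depth. Among the Pf4-high cells, Gp1ba was found in 54 of 254 and Gp1bb in 133, and 28 cells, or 11%, had both together with Gp9.

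Of the integrin chains, Itga2b was found in 121 and Itgb3 in 112 of the 793 unthinned LT-HSC Hlf-high Pf4-low cells, and both in 29. In Pf4-high cells Itga2b was found in 239 and Itgb3 in 146 of 254, and both in 143. Itgb3 also pairs with the αV chain, and Itgav was found beside Itgb3 in 63 of the Hlf-high Pf4-low cells. The Pf4-high cells were deeper, so absence from a cell is not absence of the transcript.

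Cells with and without Vwf were set side by side within LT-HSC Hlf-high Pf4-low cells, thinned, at medians of 12788 and 12731 UMIs before thinning. Itga2b was found in 1 of 102 cells with Vwf, or 0.98% (0.0248 to 5.34), and in 46 of 674 without, or 6.82% (5.04 to 9). Gp9 was found in 18.6% of cells with Vwf against 15.9% of those without, Itgb3 in 6.86% against 3.71% and Slamf1 in 14.7% against 14.8%. Clu, which encodes the granule chaperone clusterin, was found in 11.8% (6.23 to 19.6) against 2.08% (1.14 to 3.46), and Cavin2, a caveolar gene high in platelets, in 13.7% (7.71 to 22) against 6.82% (5.04 to 9). Of these 6 genes only Clu had intervals that lie apart. In Pf4-high cells Itga2b was found in 57.1% of cells with Vwf and 47.7% of those without. Clu and Cavin2 were among 12 genes looked at beside Vwf.

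The level of Hlf itself separated the genes. Among Pf4-low cells of the LT-HSC library, Vwf had 5.29 CPM in the 920 cells with 0 Hlf UMIs, then 17.3, 19.6, 22.8 and 31.1 CPM in rising bins, and 31.8 CPM in the 126 cells with at least 8 Hlf UMIs per 10000. Gp5 went the other way, with 24, 24.7, 15.6, 7.92, 3.66 and 2.65 CPM over the same bins. Itga2b was highest in between, with 12.7, 23.1, 22.8, 19.2, 10.4 and 9.28 CPM. Gp9 had 10.1 CPM with 0 Hlf UMIs, at most 45.5 CPM at 1 to under 2 per 10000, and 29.8 CPM in the last bin. So in this library Vwf was higher in cells with more Hlf, its last 2 bins being alike, and Gp5 was higher in cells with less. In the library labelled ST-HSC, Vwf had 5.8 CPM with 0 Hlf UMIs, then 1.87, 1.95, 1.97, 3.37 and 4.47 CPM in rising bins.

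**Figure D4:**
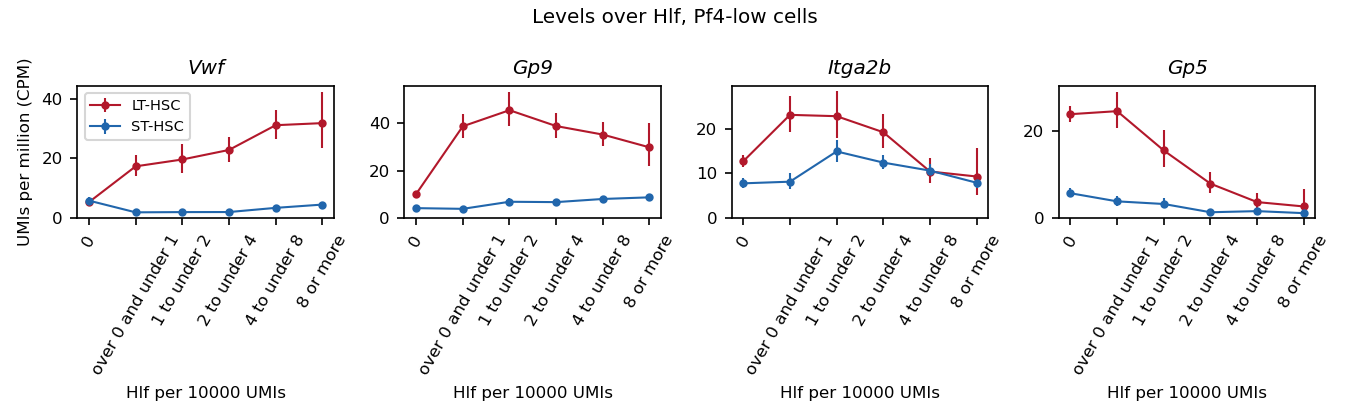
CPM of Vwf, Gp9, Itga2b and Gp5 in Pf4-low cells, in bins of Hlf UMIs per 10000 from low to high, for the LT-HSC library and the library labelled ST-HSC; bars are exact Poisson 95% intervals. In the LT-HSC library Vwf has 5.29 CPM in the first bin and 31.8 CPM in the last, and Gp5 has 24 and 2.65 CPM. In the library labelled ST-HSC Vwf has 5.8 CPM in the first bin, 1.87 CPM in the next and 4.47 CPM in the last.

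As a contrast of 2 classes in the LT-HSC library, Vwf had 27.6 CPM in Hlf-high Pf4-low cells and 8.49 CPM in Pf4-low cells under the Hlf limit, a ratio of 3.25 (2.78 to 3.8). Itgb3 had a ratio of 3.88 (3.04 to 4.97) and Gp9 of 2.03 (1.79 to 2.29), while Gp5 was 4.33 times lower (3.37 to 5.65) and Itga2b had a ratio of 0.926 (0.776 to 1.1). Of the 5 genes that reached the mean, 3 had a ratio of at least 2 and 1 of at most 0.5, where 21.6% and 6.45% of all genes did. Itgb3 reached it only through the Hlf-high Pf4-low cells, with 12.7 against 3.27 CPM. The cells under the limit held much erythroid RNA, 6541 CPM over 12 erythroid markers against 387 CPM in the Hlf-high Pf4-low cells. In the library labelled ST-HSC the same contrast gave Vwf a ratio of 0.858 (0.697 to 1.06), with 3.31 against 3.86 CPM. Gp9 there had a ratio of 1.67 (1.41 to 1.97), and of the 2 genes that reached the mean 0 were past 2-fold, where 5.67% of all genes had a ratio of at least 2, 3.27% of at most 0.5 and 8.95% either.

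Set against Car1-high cells, the LT-HSC Hlf-high Pf4-low cells had 7.74 times as much Vwf (5.96 to 10.2), 6.98 times as much Gp9 (5.61 to 8.76), 5.14 times as much Itga2b (3.76 to 7.14) and 41 times as much Itgb3 (18.4 to 113). Gp5 was 4.15 times lower, with 5.38 CPM in Hlf-high Pf4-low cells against 22.3 CPM in Car1-high cells. Thus 4 genes of the 5 that reached the mean were higher and 1 was lower, where 31.2% and 8.54% of all genes were, 39.7% in all. Vwf, Itga2b and Itgb3 reached it only through the Hlf-high Pf4-low cells, with 3.57, 2.74 and 0.31 CPM in Car1-high cells. Gp5 was found in 55% of unthinned Car1-high cells and made up 61.9% of their UMIs of the 8 genes, so its transcripts were spread over much of the erythroid class. Gp1ba also stood no lower there, with 1.3 CPM in Hlf-high Pf4-low cells and 1.91 CPM in Car1-high cells.

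Both libraries were also clustered together on variable genes without the 8 genes, which gave 18 clusters and 17 sums of at least 50 cells of 1 cluster and library. Nearly every cluster came from 1 library. In the LT-HSC library, the HSC-like cluster 3 (1118 cells) had 28.2 CPM of Vwf, 43.3 of Gp9, 14 of Itgb3, 13.6 of Itga2b and 5.58 of Gp5. The megakaryocyte progenitor-like clusters 8 and 14, led by Pf4 and Cavin2, had 84.7 and 68.6 CPM of Vwf, 127 and 103 of Itga2b, and 107 and 85.1 of Gp9. Gp1bb had 0.389 CPM in cluster 3 but 19.3 and 24.5 CPM in clusters 8 and 14, and 10 of the 12 Gp6 UMIs of the library were in cluster 14. The erythroid-like clusters 7 and 9 had 21.6 and 25.5 CPM of Gp5. They had 6.57 and 4.16 CPM of Vwf, against 3.57 CPM in Car1-high cells, which were held to low Pf4. Pf4 had 65.7 and 12.5 CPM in the 2 clusters.

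The HSC-like clusters 4 and 5 of the library labelled ST-HSC had 5.89 and 5.12 CPM of Vwf, 10.7 and 13.9 CPM of Gp9 and no Gp1bb UMI. In some other clusters there 1 gene of the set stood above the rest.
Cluster 11 (304 cells), dendritic cell-like and led by Plbd1, Zfp366 and Ifi205, had 14.3 CPM of Vwf (11.2 to 18), with Gp9 at 1.61 and Pf4 at 4.42 CPM. Its 71 Vwf UMIs lay in 51 cells, at most 3 in 1 cell. The 12 endothelial genes summed to 26.1 CPM in it and to 77.2 and 75.3 CPM in the HSC-like clusters 4 and 5, and the endothelial cadherin gene Cdh5 had 0.402 CPM.

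Cluster 15 (159 cells), T or NK cell-like and led by Gm2682, Ikzf3 and Skap1, had 24.1 CPM of Itgb3 (16.7 to 33.7) and no Itga2b UMI, which allows up to 2.61 CPM at the upper 95% bound. Its 34 Itgb3 UMIs lay in 27 cells, and Itgav, the other partner of Itgb3, had 66.6 CPM. Cluster 12 (231 cells), neutrophil-monocyte progenitor-like and led by Elane, Prss34 and Ms4a3, had 18.1 CPM of Itga2b (14.9 to 21.7) and 2.18 CPM of Itgb3. The 52 cells of the erythroid-like cluster 9 in the library labelled ST-HSC had 40.6 CPM of Itga2b and no Itgb3 UMI. In these 3 sums 1 integrin chain was present with little or none of the other. This was not particular to them. The S phase-like cluster 6 of the library labelled ST-HSC had 14.6 CPM of Itga2b and 2.94 CPM of Itgb3. The erythroid-like cluster 9 in the LT-HSC library had 14.8 and 0.91 CPM.

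**Figure D5:**
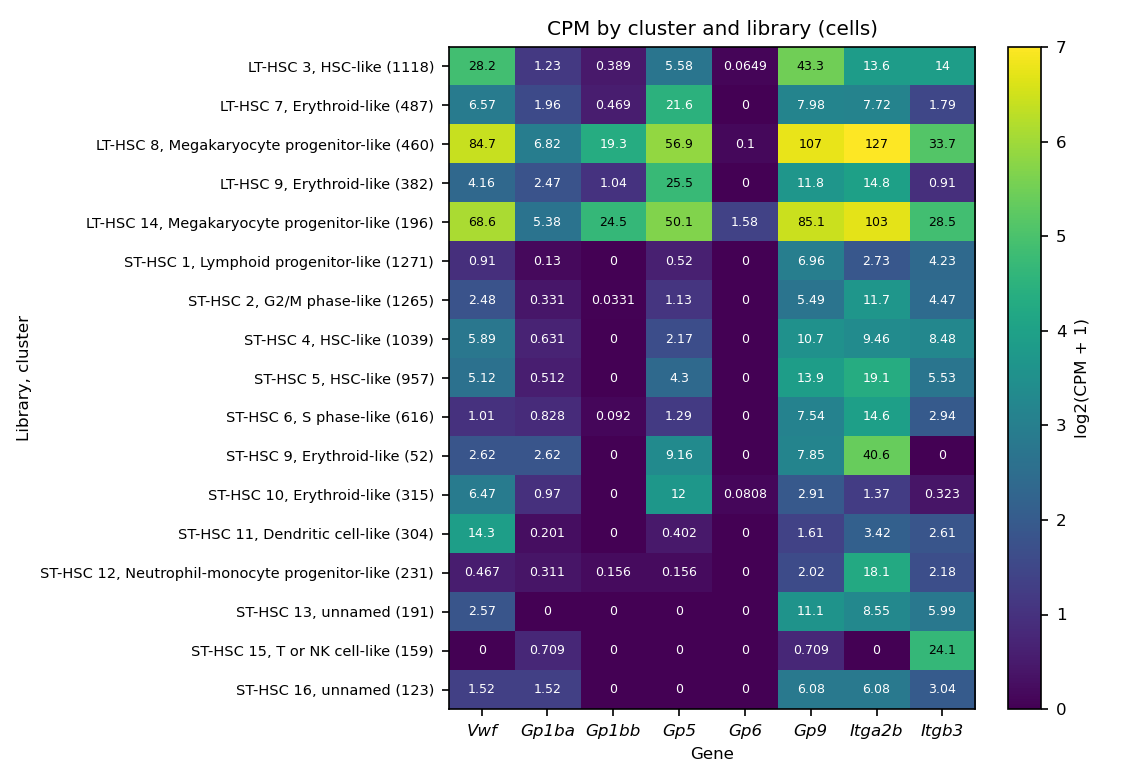
CPM of the 8 genes (columns) in the 17 sums of 1 cluster and library (rows, with the number of cells), coloured by log2(CPM + 1). The megakaryocyte progenitor-like clusters 8 and 14 hold the highest values of the 8 genes, which for Gp6 in cluster 8 is 1 UMI. Within the library labelled ST-HSC, Vwf is highest in cluster 11, Itgb3 in cluster 15 and Itga2b in cluster 9.

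Across these 17 sums, log2(CPM + 1) of Gp1ba and Gp5 had the highest Pearson r of any pair of the set, 0.854, and Vwf and Gp9 had 0.793. Itga2b and Itgb3, whose proteins pair, had 0.236, and Gp5 and Itgb3 had 0.104. Of 9883 other genes, Pttg1ip (0.906), Rab11a (0.901), Isoc1 (0.861), Idi1 (0.859) and Nupr1 (0.856) had the highest r with Vwf. With Itga2b they were S100a1 (0.916), Rab27b (0.907), Zfp111 (0.876), Dach1 (0.868) and Slx1b (0.859). These are descriptions over sums that share libraries and depth, and they carry no p-value.

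Between the libraries, the partner genes of the receptors that were past 2-fold were lower in the LT-HSC library. The list held 25 genes, which were receptor partners, genes of inside-out signalling and Sept5, the neighbour of Gp1bb. All but Sept5, 24 genes, were measured between the libraries. Of these, 0 had a ratio of at least 2 and 5 of at most 0.5, where 2.88% and 10.8% of all genes did. Their median log2 ratio was -0.55 against -0.12 for all genes. Vav3, an exchange factor of the GPVI pathway, had 84.1 CPM in the LT-HSC library, against 455 CPM in the library labelled ST-HSC. Plcg2, the phospholipase of that pathway, had 53.9 against 215 CPM, the kinase gene Syk had 49.8 against 116 CPM, and Itga2, the collagen-binding integrin chain, had 3.4 against 9.63 CPM. Between Hlf-high Pf4-low and Pf4-high cells of the LT-HSC library 0 of 24 were higher and 4 lower, where 14.2% and 5.05% of all genes were, and Vav3 had 168 against 137 CPM. Over the Pf4-low cells under the Hlf limit 5 of 23 were higher and 0 lower (21.6% and 6.45% of all genes), and over Car1-high cells 13 of 23 were higher and 0 lower (31.2% and 8.54%).

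Of 25 other platelet receptors and surface proteins, 21 were measured between the libraries, 7 with a ratio of at least 2 and 1 of at most 0.5, where 2.88% and 10.8% of all genes were, with a median log2 ratio of 0.49. Treml1, a platelet granule membrane protein, had 23.9 CPM in the LT-HSC library against 0.778 CPM in the library labelled ST-HSC, the ADP receptor gene P2ry1 had 12.4 against 2.23 CPM, F2rl2, a thrombin receptor gene, had 9.42 against 1.8 CPM and the tetraspanin gene Cd9 had 172 against 46.2 CPM. Within Hlf-high Pf4-low cells 9 of 19 were higher in the LT-HSC library and 0 lower, where 4.97% and 6.47% of all genes were, with a median of 0.83. There F2rl2 had 1.87 against 1.96 CPM, while Treml1 had 9.61 against 0.591 CPM. Between Hlf-high Pf4-low and Pf4-high cells of the LT-HSC library, 3 of 22 were higher, near the 14.2% of all genes, and 8 lower, where 5.05% of all genes were, with a median of -0.26. Over the Pf4-low cells under the Hlf limit 13 of 20 were higher and 1 lower (21.6% and 6.45% of all genes). Over Car1-high cells 16 of 19 were higher and 1 lower (31.2% and 8.54%).

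Of 19 platelet granule genes 12 were measured between the libraries, 5 higher, where 2.88% of all genes were, and 2 lower, where 10.8% were, with a median of 0.42. Cavin2 had 51.8 CPM in the LT-HSC library against 0.224 CPM in the library labelled ST-HSC, and Rab27b, a GTPase of granule release, had 56.3 against 11.1 CPM. F13a1, the factor XIII A chain, had 0.0928 against 15.6 CPM, and 35.9 CPM was found in the cells under the Hlf limit in the library labelled ST-HSC. Between Hlf-high Pf4-low and Pf4-high cells of the LT-HSC library, 0 of 13 were higher and 7 lower, where 14.2% and 5.05% of all genes were, with a median of -1.29. Pf4, which defined these classes, is among the 13 and among the 7 lower, with 17.1 against 5581 CPM. Its direction was fixed by that choice.

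All 15 megakaryocyte transcription factors were measured between the libraries, with 4 higher, where 2.88% of all genes were, 1 lower, where 10.8% were, and a median of 0.09. Gata1 had 72.1 CPM in the LT-HSC library, against 17.3 CPM in the library labelled ST-HSC, Gfi1b 60.6 against 22.3 CPM, Gata2 103 against 43.9 CPM and Etv6 529 against 1523 CPM. Among Hlf-high Pf4-low cells Gata1 had 8.72 against 2.61 CPM and Gata2 117 against 48.4 CPM. Gata1 was 6.66 times lower in Hlf-high Pf4-low than in Pf4-high cells of the LT-HSC library, at 8.72 against 58.1 CPM, while Gata2 had 117 against 132 CPM. As a class, the Hlf-high Pf4-low cells thus had Gata2 near the level of the Pf4-high cells and less Gata1. Gata1 was not particular to the Pf4-high cells, with 126 CPM in Car1-high cells of the LT-HSC library. Gfi1b had 81.6 CPM in Car1-high cells against 69.6 CPM in Pf4-high cells, and Gata2 had 50.3 CPM in Car1-high cells.

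Endothelial cells also make von Willebrand factor, so their genes were set beside it. In LT-HSC Hlf-high Pf4-low cells 11 of 12 endothelial genes had a UMI and summed to 92.7 CPM, with Lyve1 at 0, against 34.9 CPM in Pf4-high cells, where Cdh5, Lyve1, Fabp4 and Ptprb were at 0. Tie1 with 42.8 CPM and Emcn with 40.8 CPM made up most of the first sum, and both are known in stem cells too. Only these 2 genes were measured between the libraries, Emcn with 13.1 CPM in the LT-HSC library against 23.6 CPM in the library labelled ST-HSC and Tie1 with 19 against 16.5 CPM. Within Hlf-high Pf4-low cells Emcn had 40.8 against 32.4 CPM, a ratio of 1.26 (1.14 to 1.39), and Tie1 had 42.8 against 22.6 CPM, a ratio of 1.89 (1.71 to 2.09). There 11 of the 12 endothelial genes had a UMI in each library, Lyve1 being at 0 in both, and they summed to 92.7 against 60.1 CPM. In that class the endothelial genes and Vwf were both higher in the LT-HSC library. Over all kept cells the 12 genes summed to 39.8 CPM in the LT-HSC library against 47.5 CPM in the library labelled ST-HSC. Vwf had 29.5 against 3.72 CPM there. Pf4-high cells had the lower endothelial sum and more Vwf, 124 against 27.6 CPM in Hlf-high Pf4-low cells of the LT-HSC library. The part of the endothelial genes in the Vwf difference was not tested.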

How the data were processed

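UMI counts per gene and cell were deposited by the authors as 1 matrix per library without normalization, made by Cell Ranger 7.2 on mm10 per the submitters' processing notes and by Cell Ranger 7.1.0 per the file headers. The labels name the 10x 3' v2 kit. Barcodes with at least 1000 genes and under 10% mitochondrial UMIs were kept, with 64673871 UMIs in the LT-HSC library, against 111783180 in the library labelled ST-HSC. Scrublet marked 7 of 2722 cells (0.257%) and 0 of 6648, under 0.5% in both, so its calls were not used and no doublets were removed. Leaving out the cells above its expected-rate quantile (40 and 402) was an alternative.

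UMIs were summed per class and scaled to CPM. Ratios carry exact conditional binomial, CPM exact Poisson and shares Clopper-Pearson 95% intervals, which cover counting error only, and a count of 0 a limit of 3 counts. Cells were thinned to 5000 UMIs, which left out 68 shallower cells of the LT-HSC library and 281 of the library labelled ST-HSC. Clusters came from scanpy 1.11.5 (2000 variable genes, 30 components, 15 neighbours, leidenalg 0.10.2 at resolution 0.8) and were named from marker lists, so names are rebuilt here. TMM sizes came from edgeR 4.0.16. Positions are from GENCODE M21, in which 32158 of 32285 gene IDs were found. The ratio was tested on simulated counts. The thinning was tested on the kept LT-HSC cells themselves, against the Vwf share expected over all draws. Alternatives were other scalings, expression minimums, cell filters, class limits, depths and cluster resolutions, and, chosen after seeing the data, leaving out shared barcodes and the expectation over all draws. The class of Pf4-low cells under the Hlf limit was also added after the others were set.

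The members, lists, classes and motifs were chosen with earlier results of these data known. Named were the 8 genes, the 5 genes most like Vwf and Itga2b over cluster sums, Hlf, Pf4, the gate genes, up to 4 genes of each list with the largest absolute log2 ratio between the libraries, and the 3 leading genes of a described cluster. Clu, Itgav and Cdh5 were named after their values were seen.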

Additional observations from a re-analysis of the deposited data

Results flagged for a closer look

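Among Pf4-low cells, the log2 ratio of Vwf in cells with high over cells with low Hlf was 1.70 in the LT-HSC library, against -0.22 in the library labelled ST-HSC. For Itga2b it was -0.11 in the LT-HSC library, against 0.11 in the library labelled ST-HSC. The signs differed between the libraries, and this difference was not tested, since there was 1 library per group. In the library labelled ST-HSC, Pf4-low cells with 0 Hlf UMIs had 5.8 CPM of Vwf. Above 0 Hlf, Vwf had 1.87 CPM in the lowest bin and 4.47 CPM in the highest, so there too it was higher with more Hlf. The interval of the Itga2b ratio held 1 in both libraries, as did that of Vwf in the library labelled ST-HSC.

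Barcodes that were not kept also held UMIs of these genes, above the limit of 3 counts. In the 216 such barcodes of the LT-HSC library, at a median of 1228 UMIs, there were 18 UMIs of Vwf, 12 of Gp5, 6 of Gp9, 32 of Itga2b and 7 of Itgb3. A single barcode held 10 of the Vwf UMIs, and a single barcode held 16 of the Itga2b UMIs. In the 938 such barcodes of the library labelled ST-HSC, at a median of 992 UMIs, there were 5 UMIs of Vwf, 6 of Gp9, 22 of Itga2b and 6 of Itgb3.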

How the results depend on the processing

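No paired analysis was possible because each group had 1 library. Without the expression filter the genes past 2-fold between the libraries numbered 8525 in place of 1426 (more genes enter), members past 2-fold 8 in place of 5, and in Hlf-high Pf4-low cells 7 in place of 3. With a mean of at least 20 CPM there were 767 genes (fewer genes enter). The other alternatives gave 1328 to 1427 genes and the same member counts. The share of LT-HSC Hlf-high Pf4-low cells with Vwf follows depth, 7.86%, 20.2% and 27.1% at 3000 UMIs, 10000 UMIs and unthinned; that of Pf4-high cells was 29.5%, 59.8% and 84.6%. Over all possible draws of 5000 UMIs, an alternative added after seeing the data, 12.5% and 39.8% are expected. Leaving out the 6 shared barcodes, also added then, gave 12% and 39% on a new random draw, so the change is not that of the barcodes alone. The highest cluster level of Vwf was 79.2 to 85 CPM at other resolutions. Of 205 member ratios under alternatives 196 stayed within their counting interval, 9 (of Gp9, Itga2b and Gp5) moved beyond it and 0 were reversed. What limits these results is the single library per group and, for Gp1ba, Gp1bb and Gp6, depth. For Gp1bb the overlap with other genes may add to this.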

Other observations

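The 11 Pf4-high cells of the library labelled ST-HSC were too few for a ratio. They held 10 UMIs of Vwf, 19 of Itga2b, 7 of Itgb3, 5 of Gp9, 4 of Gp5, 1 of Gp1bb and 0 of Gp1ba and Gp6. Among Pf4-high cells, 11 of 254 in the LT-HSC library and 8 of 11 in the library labelled ST-HSC were also Hlf-high.

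Between the Pf4-low and Pf4-high limits, 412 cells of the LT-HSC library had 1 to under 10 Pf4 UMIs per 10000. Vwf had 41.5 CPM in them, Gp9 76.2, Itga2b 60.4, Gp5 29.7 and Gp1bb 8.8 CPM. The 397 such cells of the library labelled ST-HSC had no Gp1bb UMI. Over bins of Pf4 in the LT-HSC library, Gp1bb had 0.741, 2.19, 6.19, 12.9, 22.5 and 39.2 CPM, and Vwf 12.5, 15, 30.5, 58.6, 82 and 148 CPM.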
